A study of Mus musculus with 13 samples.

Results

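The genes of MHC class II antigen presentation were followed in bulk mouse bone marrow after blood loss. The set holds the invariant chain (Cd74), the classical class II chains (H2-Aa, H2-Ab1, H2-Eb1), the peptide editors (H2-DMa, H2-DMb1, H2-Oa, H2-Ob) and the transactivator Ciita, taken wherever a probe set was annotated to that gene alone. This gave 8 of the 9 genes among 19938 genes measured, each from a single probe set. H2-DMb1 shares its probe set with H2-DMb2 and is described apart, without a place in any count.

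Femoral marrow came from male C57BL/6 mice aged 6 weeks and kept on standard chow. The 3 controls were taken at baseline, and the phlebotomised mice, which lost 500 µL of blood by retro-orbital puncture, gave 1 sample at 4 h, 3 at 9 h and 2 each at 12 h, 15 h and 48 h. RNA of each sample was measured on 1 Affymetrix Mouse Gene 1.0 ST array, a chip with probes along the whole transcript, and the deposited values are log2 levels. The labels give neither the hour of day nor a sham puncture for the controls.

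Class II molecules show peptides from ingested proteins to CD4+ T cells. An alpha and a beta chain pair around the invariant chain, whose remnant is later exchanged for a peptide with the help of H2-DM, and H2-DM is held back by H2-O. In marrow these genes are active in B cells, dendritic cells, macrophages and some progenitors. Their promoters share an X box, bound by the RFX complex, and a Y box, bound by NF-Y, and Ciita is recruited to these factors without binding DNA itself.

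RefSeq promoter windows of GRCm38.p6, from 250 bases before to 50 bases after the annotated start, were found for 6 of the 9 genes. Cd74, H2-Ab1 and Ciita had none, and 4 of the 6 are shown. Each run covers the bases from 120 to 31 before the start on the gene's own strand. The capitals mark an X core (AGCAAC) and a Y core (ATTGG) on that strand. The 4 include every gene of the 6 with an X core followed by a Y core, so they do not represent all 6.
H2-Eb1: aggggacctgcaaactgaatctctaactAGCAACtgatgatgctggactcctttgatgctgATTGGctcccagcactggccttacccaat
H2-Ob: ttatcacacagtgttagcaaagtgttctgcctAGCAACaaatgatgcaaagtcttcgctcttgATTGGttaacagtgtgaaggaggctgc
H2-Oa: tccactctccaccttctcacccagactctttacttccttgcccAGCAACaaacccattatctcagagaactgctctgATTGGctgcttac
H2-Aa: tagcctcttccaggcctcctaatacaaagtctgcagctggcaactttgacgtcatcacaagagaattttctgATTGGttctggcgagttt
They lie at chr17:34305747-34305836 (plus strand), chr17:34238785-34238874 (plus), chr17:34092259-34092348 (plus) and chr17:34287854-34287943 (minus).

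In H2-Eb1, H2-Ob and H2-Oa the Y core began 33, 31 and 34 bases after the X core. By exact letters H2-Aa held the Y core alone, 48 bases before the start. The letters ggcaac ahead of that Y core differ from the X core only in the first, and were not counted. Both strands of the whole windows were searched, and no X core overlapped a Y core in these 4 genes. The only match on the other strand was a further Y core in H2-Eb1, read here as ccaat and left in lower case, which begins 35 bases before the start. Of 32851 promoter windows of that length in the table, 14.8% held the X core, 37.4% the Y core and 0.444% an X core followed by a Y core whose first base lay 20 to 45 bases further on, a spacing chosen after these promoters were seen. On both strands the letters of both cores were absent from the first of the windows of H2-DMa, while its second window held a Y core 198 bases before the start and that of H2-DMb1 held one 61 bases before it. A match describes letters and not a bound site, and the lack of an exact match does not show that a box is absent.

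By the number in its title each array belongs to a run of 10 or a run of 3, called the larger and the smaller series here, the latter holding control replicate 3 and 9 h replicates 1 and 2. Array medians lay between 6.98 and 7.03 in the larger series and between 7.77 and 7.80 in the smaller, where 62.3% of probe sets repeat a value exactly on 2 or 3 of its arrays. Single levels are therefore compared only within a series. Differences are log2 fold changes ± standard error from 1 limma fit to all 13 arrays with a term for the series, where p is Benjamini-Hochberg adjusted across the 19938 genes and the threshold is 0.05. How precise each value is depends on the small number of arrays.

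None of the 8 class II genes passed the threshold at any time against control, or at 48 h against 12 and 15 h. Their levels were positively correlated across the arrays. In the larger series the classical chains were highest on the single 4 h array and the single 9 h array, near the controls at 12 and 15 h, and lowest on 48 h replicate 1. The correlation between pairs of the 8 genes over these 10 arrays had a median of 0.77, from 0.56 for H2-DMa with H2-Oa to 0.97 for H2-Ab1 with H2-Eb1. These are descriptions of arrays from several groups, and the 8 genes are not independent of each other.

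**Figure D1:**
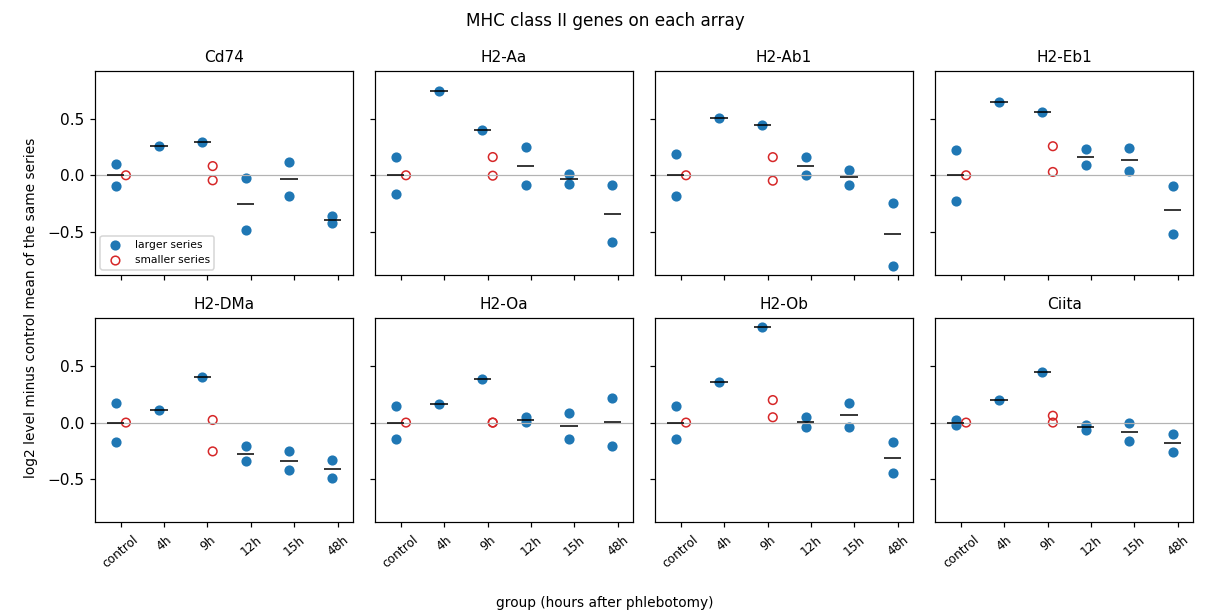
Log2 level of each measured class II gene on every array, minus the mean of the controls of the same series, by group. Filled points are the larger series with a bar at the group mean, open points the smaller. The 4 h and 9 h points of the larger series lie above the controls for most genes, and H2-Ab1 at 48 h lies below them.

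The classical chains form the peptide-binding molecules themselves. H2-Ab1, the beta chain of I-A, had levels of 10.82 and 10.45 in the controls of the larger series, 11.14 at 4 h, 11.08 at 9 h, 10.64 and 10.80 at 12 h, 10.55 and 10.69 at 15 h, and 9.84 and 10.39 at 48 h. Both 48 h arrays lay below every other array of that series, and the 4 h and 9 h arrays lay above all others. The order of group means was 4 h, 9 h, 12 h, control, 15 h and 48 h, with 12 h, control and 15 h overlapping their neighbours. In the smaller series the control stood at 11.42 and the 9 h arrays at 11.58 and 11.37, on either side of it.

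H2-Aa, the alpha chain of I-A, had levels of 10.68 and 10.36 in those controls, 11.26 at 4 h, 10.92 at 9 h, 10.44 and 10.77 at 12 h, 10.44 and 10.53 at 15 h, and 9.93 and 10.43 at 48 h. The first 48 h array lay below both controls and the second between them, and its group means had the same order as those of H2-Ab1. For H2-Eb1, the beta chain of I-E, the levels were 10.03 and 9.58 in the controls, 10.45 at 4 h, 10.36 at 9 h, 9.90 and 10.04 at 12 h, 9.84 and 10.04 at 15 h, and 9.28 and 9.70 at 48 h. Its group means ran from 4 h through 9 h, 12 h, 15 h and control to 48 h, with each group from 12 h on overlapping the next. In the smaller series H2-Aa was 11.51 in the control and 11.67 and 11.50 at 9 h, and H2-Eb1 was 10.75 in the control and 11.01 and 10.78 at 9 h. C57BL/6 mice carry a defect in the partner gene H2-Ea and make no I-E at the cell surface. On the larger series the level of H2-Ea stayed between 4.90 and 5.18.

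The invariant chain Cd74 blocks the peptide groove until the molecule reaches the endosome. Its levels were 11.42 and 11.23 in the controls, 11.59 at 4 h, 11.62 at 9 h, 10.85 and 11.31 at 12 h, 11.14 and 11.45 at 15 h, and 10.90 and 10.97 at 48 h. Both 48 h arrays lay below both controls, but 12 h replicate 1 was lower still. Its group means ran from 9 h through 4 h, control, 15 h and 12 h to 48 h, and each group from control on overlapped the next. In the smaller series it was 12.14 in the control and 12.22 and 12.09 at 9 h.

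Among the peptide editors, H2-DMa, the alpha chain of H2-DM, was the member with the lowest 12 and 15 h levels relative to the controls. Its levels were 9.45 and 9.79 in the controls, 9.73 at 4 h, 10.02 at 9 h, 9.28 and 9.42 at 12 h, 9.20 and 9.37 at 15 h, and 9.13 and 9.30 at 48 h. All 6 arrays from 12 h on lay below both controls of the larger series, while in the smaller series the 9 h arrays (10.23 and 9.95) stood on either side of the control (10.21). The order of means was 9 h, 4 h, control, 12 h, 15 h and 48 h, where 4 h overlapped the controls and the last 3 groups overlapped each other in turn. H2-Ob, the beta chain of H2-O, had 9.94 and 9.65 in the controls, 10.15 at 4 h, 10.63 at 9 h, 9.75 and 9.84 at 12 h, 9.76 and 9.97 at 15 h, and 9.35 and 9.62 at 48 h. It was the member with the highest 9 h array relative to the controls, and its order of means was 9 h, 4 h, 15 h, 12 h, control and 48 h, with 15 h, 12 h and control overlapping. Its smaller series held 10.72 in the control and 10.92 and 10.77 at 9 h.

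H2-Oa, the alpha chain of H2-O, moved least among the 8, by 0.59 between the lowest (7.38, at 48 h) and the highest array (7.97, at 9 h) of the larger series. Its 48 h arrays (7.38 and 7.80) lay on either side of both controls (7.73 and 7.44), and its 4 lower groups (12 h, 48 h, control and 15 h) overlapped. Between these extremes lay 4 h (7.75), 12 h (7.59 and 7.63) and 15 h (7.44 and 7.67). In the smaller series all 3 arrays had the same value, 8.76, so that series cannot show how it moved. The fit nevertheless takes these arrays as a 9 h difference of 0. The fitted 9 h difference of H2-Oa was 0.19, against 0.38 within the larger series. Ciita had 7.30 and 7.25 in the controls, 7.47 at 4 h, 7.72 at 9 h, 7.21 and 7.26 at 12 h, 7.11 and 7.27 at 15 h, and 7.18 and 7.02 at 48 h. Its means followed the order 9 h, 4 h, control, 12 h, 15 h and 48 h, with overlap between neighbours from control on. Its control in the smaller series and 9 h replicate 2 shared 1 value (8.16), beside 8.22 on 9 h replicate 1.

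The probe set annotated to both H2-DMb1 and H2-DMb2, which both encode a beta chain of H2-DM, had 8.57 and 7.80 in the controls, 8.92 at 4 h, 8.92 at 9 h, 8.35 and 8.38 at 12 h, 8.20 and 8.53 at 15 h, and 7.78 and 8.03 at 48 h. The controls lay far apart, the second being close to the lowest 48 h array. In the smaller series it had 9.46 in the control and 9.54 and 9.50 at 9 h. Neither gene can be told from the other here.

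At 4 h, on 1 array against 3 controls, the largest difference was that of H2-Aa, 0.69 ± 0.21 or 1.61-fold (95% confidence interval 0.22 to 1.15, adjusted p = 0.157). H2-Eb1 followed with 0.58 ± 0.22 (adjusted p = 0.238) and H2-Ab1 with 0.44 ± 0.22 (adjusted p = 0.380), while H2-DMa differed by 0.021 ± 0.19. Of the 8 genes 0 passed and 2 had an unadjusted p under 0.05, against 1.99% of all genes past the threshold and 15.2% at the unadjusted one. The median of the members was 0.23, and that of all genes −0.0035. On the array itself 7 of 8 members exceeded both controls of its series, as did 35.7% of all genes.

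Transcripts of other tissues differed between the arrays, most of all at 4 h. Of 20 small intestine markers 18 rose there (median 3.93), among them Reg3g, an antimicrobial lectin, from 7.61 and 7.54 in the controls of the larger series to 12.32, and the mean level of the list stood 3.36 above those controls. That list was chosen with these results known and is no independent evidence. On every array other than those of control and 4 h the list's mean lay 0.41 to 0.72 below the controls of its series, 3 of the 20 genes fell at 9 h, 3 at 12 h, 4 at 15 h and 4 at 48 h (2 rose at 48 h), and Reg3g fell by 2.21 at 9 h (adjusted p = 1.35e-06). Every class II difference from control is therefore one between marrows that also differ in these transcripts. For 14 skeletal muscle genes at 4 h the median was 1.55, and 0 passed. Gut wall holds class II positive cells, and the part of these transcripts in the class II levels was not tested. Itgae, an integrin chain of dendritic cells and of gut T cells, rose by 0.45 ± 0.10 (adjusted p = 0.0425), the only one of 18 dendritic cell markers that passed. The median of that list was −0.0028, with 11 of 18 differences negative and a lowest value of −0.45. Flt3, a receptor of dendritic cell progenitors, differed by 0.61 ± 0.15 (adjusted p = 0.0730), and Siglech, of plasmacytoid dendritic cells, by −0.0040 ± 0.29.

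**Figure D2:**
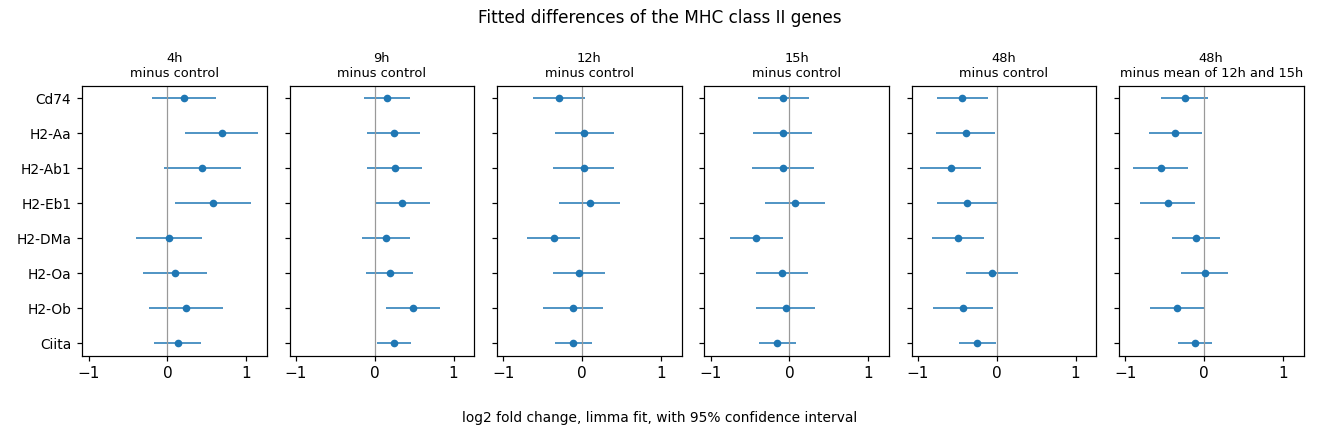
Log2 fold change of each measured class II gene from the limma fit to 13 arrays, with its 95% confidence interval, in 6 comparisons. The points at 4 h and 9 h lie right of 0 and those at 48 h against control left of it. At 48 h against 12 and 15 h H2-Oa lies at 0.0062 and the others left of 0. None passed the adjusted threshold.

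At 9 h, on 3 arrays against 3 controls, H2-Ob differed by 0.48 ± 0.15 or 1.40-fold (95% confidence interval 0.14 to 0.82, adjusted p = 0.657), H2-Eb1 by 0.35 ± 0.16 and Ciita by 0.24 ± 0.10 (adjusted p = 0.806 for each). The other 5 lay between 0.14 and 0.25. Of the 8 genes 0 passed and 3 had an unadjusted p under 0.05, while 0.0953% of all genes passed and 6.12% did so unadjusted. The members' median was 0.24 and that of all genes 0.012.

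The 9 h values rested on 9 h replicate 3, the array of the larger series. There every member lay above both controls, as did 40.9% of all genes, by 0.30 for Cd74 to 0.84 for H2-Ob. In the smaller series the same differences ran from −0.12 for H2-DMa to 0.14 for H2-Eb1. The difference between the series, tested as an interaction, passed for 0 of the 8 members (2 unadjusted) and for 0% of all genes (6.09% unadjusted). It was −0.72 ± 0.23 for H2-Ob and −0.42 ± 0.15 for Ciita (adjusted p = 0.776 for each). Without 9 h replicate 3 the members' median of 0.24 became 0.04, and without control replicate 3, which removes the comparison in the smaller series, it became 0.42.

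**Figure D3:**
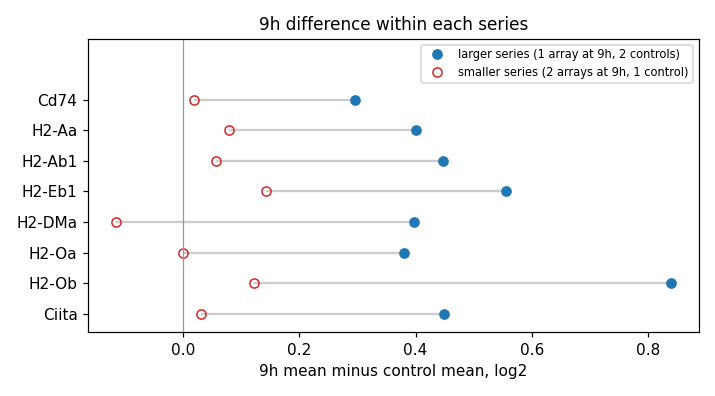
Mean of the 9 h arrays minus mean of the controls, in log2, for each measured class II gene within each series. Filled points (larger series) run from 0.30 to 0.84 and open points (smaller series) from −0.12 to 0.14.

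The means of the lymphocyte lists were also high on 9 h replicate 3. Relative to the larger-series controls, the mean level of 14 T and NK cell markers was higher by 0.33 and that of 22 B-lineage markers by 0.25, against 0.47 for the class II genes and 0.0025 for 17 macrophage and monocyte markers. On the 9 h arrays of the smaller series the B-lineage list stood at −0.080 and −0.034, the T and NK list at 0.064 and 0.0031 and the class II genes at 0.12 and −0.034. None of these lists had a gene past the threshold at 9 h. In the fit over all 9 h arrays the B-lineage list had a median of 0.040, with 14 of 22 differences positive, 8 negative and a lowest value of −0.24. The skeletal muscle list stood at 0.68 on 9 h replicate 3 and at −1.02 and −0.41 on the others, and its part in the class II levels was not tested. The highest difference of the B-lineage list was that of Fcer2a (CD23), which with Cr2 (CD21) marks mature B cells. These 2 were named after their values were seen and differed by 0.82 ± 0.31 and 0.37 ± 0.18 (adjusted p = 0.799 and 0.810). In bulk marrow fewer cells of a type and less RNA per cell cannot be told apart.

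At 12 h and 15 h the classical chains lay close to the controls. H2-Aa differed by 0.029 ± 0.17 and −0.086 ± 0.17, H2-Ab1 by 0.018 ± 0.18 and −0.084 ± 0.18, and H2-Eb1 by 0.095 ± 0.17 and 0.068 ± 0.17, on 2 arrays each against 3 controls. For H2-Ab1 the 95% confidence interval at 12 h, −0.37 to 0.41, does not show that the level was the same. H2-DMa had the largest differences, −0.36 ± 0.15 at 12 h (adjusted p = 0.335) and −0.42 ± 0.15 at 15 h (adjusted p = 0.305). Cd74 differed by −0.30 ± 0.15 at 12 h (adjusted p = 0.408) and by −0.079 ± 0.15 at 15 h.

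The mean of 12 and 15 h against control gave H2-DMa a difference of −0.39 ± 0.13 or 0.763-fold (95% confidence interval −0.68 to −0.10, adjusted p = 0.205). Without control replicate 1 it was −0.57 and passed (adjusted p = 0.0332), within a range of adjusted p from 0.0332 to 0.684 over its 24 alternatives. Of the 8 genes 0 passed at 12 h, at 15 h or in the mean of both, with H2-DMa the only 1 under an unadjusted 0.05 in each. The background was 0.105%, 0.256% and 0.682% of all genes adjusted and 13.7%, 12.5% and 15.4% unadjusted. The members' fitted medians were −0.08, −0.09 and −0.07, and those of all genes −0.0077, −0.0072 and −0.0085. Within the larger series, which holds every array of these times, the mean of both differed from control in either direction. It was 0.15 for H2-Eb1, 0.037 for H2-Ob, 0.032 for H2-Ab1 and 0.025 for H2-Aa. The others were −0.0037 for H2-Oa, −0.063 for Ciita, −0.14 for Cd74 and −0.30 for H2-DMa. In the larger series all 4 arrays of these times lay below both controls for H2-DMa alone, a state shared by 10.2% of all genes.

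At 48 h, on 2 arrays against 3 controls, all 8 fitted differences were negative. Control replicate 3 is of the smaller series, which holds no 48 h array. Within the larger series each of the other differences was nearer 0 than its fitted value, and that of H2-Oa was 0.0024. There H2-Ab1 had −0.52, H2-DMa −0.41, Cd74 −0.39, H2-Aa −0.34, H2-Ob −0.31, H2-Eb1 −0.31 and Ciita −0.18. In the fit H2-Ab1 had the largest difference, −0.58 ± 0.18 or 0.667-fold (95% confidence interval −0.98 to −0.19, adjusted p = 0.188). It was followed by H2-DMa with −0.49 ± 0.15 (adjusted p = 0.193), Cd74 with −0.44 ± 0.15 (adjusted p = 0.225) and H2-Ob with −0.43 ± 0.17 (adjusted p = 0.293). H2-Aa (−0.39 ± 0.17), H2-Eb1 (−0.38 ± 0.17) and Ciita (−0.25 ± 0.11) were smaller, and H2-Oa differed by −0.061 ± 0.15. Of the 8 genes 0 passed and 6 had an unadjusted p under 0.05. Among all genes 0.376% passed, 14.0% had an unadjusted p under 0.05, and the median was 0.013 against −0.41 for the members.

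Both 48 h arrays lay below both controls of the larger series for 5 of the 8 (Cd74, H2-Ab1, H2-DMa, H2-Ob and Ciita), as for 16% of all genes. Without 48 h replicate 1 H2-Ab1 stood at −0.31 and H2-Aa at −0.14, and without 48 h replicate 2 at −0.86 and −0.65. For Cd74 the values over all arrays left out in turn ran from −0.54 to −0.39.

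Against the mean of 12 and 15 h, a comparison free of the controls, H2-Ab1 at 48 h differed by −0.55 ± 0.16 or 0.682-fold (95% confidence interval −0.90 to −0.20, adjusted p = 0.117), H2-Eb1 by −0.46 ± 0.16 (adjusted p = 0.160), H2-Aa by −0.37 ± 0.15 (adjusted p = 0.234) and H2-Ob by −0.35 ± 0.15 (adjusted p = 0.255). For these 4 genes both 48 h arrays lay below all 4 arrays of 12 and 15 h, as for 12% of all genes. H2-DMa, which was already low at 12 and 15 h, differed by −0.10 ± 0.14, and H2-Oa by 0.0062 ± 0.13. Of the 8 genes 0 passed and 4 had an unadjusted p under 0.05, beside 0.828% and 18.8% of all genes. The members' median was −0.30 and that of all genes 0.020. This comparison and the one with the controls share the 48 h arrays.

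Other transcripts moved with the 48 h arrays. Of 14 measured liver markers 8 rose against control (median 1.23), and the mean level of that list stood 1.50 and 1.08 above the controls on the 2 arrays, with Alb, the gene of serum albumin, at 11.69 and 11.44 against 6.87 and 7.23. The array with the lowest class II levels, 48 h replicate 1, was also low in the B-lineage list (−0.31), the macrophage and monocyte list (−0.33) and the T and NK cell list (−0.30), and its class II mean was −0.45. On 48 h replicate 2 these were −0.099, −0.066, −0.20 and −0.17. The dendritic cell list stood at −0.093 on replicate 1 and −0.069 on replicate 2, and lower, at −0.21, on 12 h replicate 1. The B-lineage list was at −0.19 and −0.13 on the 12 h arrays and at −0.21 and 0.11 on the 15 h arrays. The skeletal muscle list differed in sign between the 2 arrays, at 0.87 on replicate 1 and −0.82 on replicate 2. No gene of the B-lineage, macrophage and monocyte, T and NK cell or dendritic cell lists passed at 48 h. Fcer2a, named after its values were seen, had the lowest difference of the B-lineage list, −0.85 ± 0.34 (adjusted p = 0.301). That list had a median of −0.24, with 20 of 22 differences negative and a highest value of 0.17. Cd79a, a chain of the B cell receptor, differed by −0.31 ± 0.13 (adjusted p = 0.309). C1qa, a complement component of macrophages, differed by −0.31 ± 0.13 (adjusted p = 0.313), beside a median of −0.16 for its list. Cd3e, a chain of the T cell receptor complex, differed by −0.34 ± 0.16 (adjusted p = 0.360), beside a list median of −0.28. The part of cell numbers or of liver or muscle RNA in the class II levels was not tested.

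**Figure D4:**
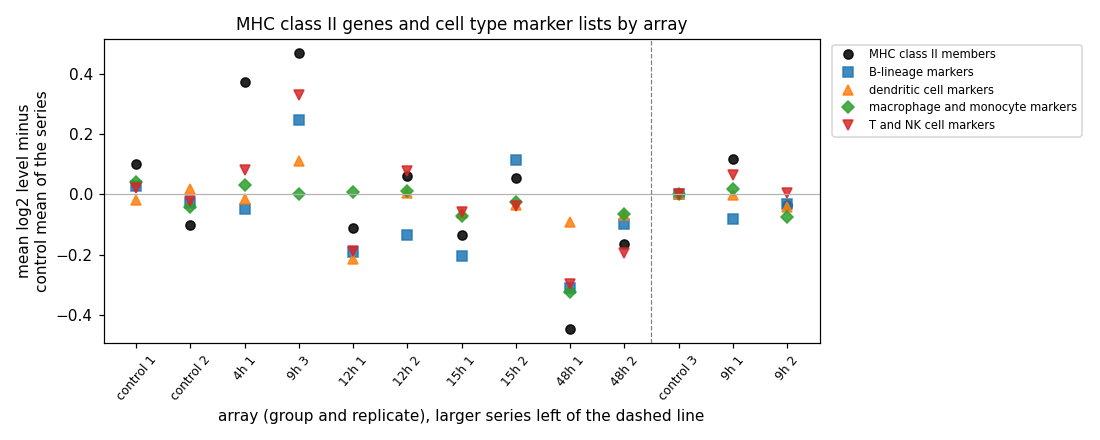
Mean log2 level of the 8 measured class II genes and of 4 cell type marker lists on each array, minus the mean of the controls of the same series, with the larger series left of the dashed line. The class II mean was highest on the 9 h array of the larger series (0.47) and lowest on 48 h replicate 1 (−0.45). There the B-lineage, macrophage and T cell lists were also low, and the dendritic cell list stood at −0.093.

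For the rest of the pathway the counts are read beside the share of all genes past the threshold, 0.0953% to 1.99% by comparison, so that a count at or near 0 is no result about a list. Of 15 measured genes of class II transcription (RFX and NF-Y subunits, interferon factors and kinases) 0 passed in any comparison, with medians from −0.10 at 48 h to 0.040 at 48 h against 12 and 15 h. Rfx5, a DNA-binding subunit of RFX, differed by 0.033 ± 0.12 at 4 h and −0.11 ± 0.10 at 48 h, and Irf8, a factor of dendritic cells, monocytes and B cells, by 0.25 ± 0.12 and −0.18 ± 0.10. Among 11 genes of peptide loading and turnover 0 passed. Ctss, the protease that trims the invariant chain, differed by 0.36 ± 0.16 at 4 h (adjusted p = 0.310) and by −0.063 ± 0.13 at 48 h. The 8 costimulation genes had 0 past the threshold in each comparison, and their median was 0.10 at 9 h and −0.18 at 48 h.

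Class I presentation, the pathway for peptides made inside the cell, was measured by 15 genes. Only Pdia3, a disulfide isomerase of the loading complex, passed, falling by 0.40 ± 0.07 at 48 h against 12 and 15 h (adjusted p = 0.0350). B2m, the light chain of class I, differed by −0.24 ± 0.09 at 48 h (adjusted p = 0.283). Of 22 B-lineage markers 1 passed, Ebf1, a factor of early B cells, which fell by 0.57 ± 0.11 at 4 h (adjusted p = 0.0277), on the array where the classical class II chains were highest. H2-Eb2, a further class II beta chain beside H2-Eb1 in the cluster, differed by 0.53 ± 0.31 at 4 h, 0.46 ± 0.23 at 9 h and −0.37 ± 0.25 at 48 h, with 0 of these past the threshold. The 18 interferon response genes had 0 past the threshold in every comparison and medians of −0.56 at 4 h, −0.29 at 9 h, −0.56 at 12 h, −0.27 at 15 h and −0.27 at 48 h, with 18 of 18 negative at each of these times other than 9 h (17 of 18). The controls of the larger series themselves stood at −0.26 and 0.26 around their mean on this list.

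Likeness to the mean of Cd74, H2-Aa, H2-Ab1 and H2-Eb1 was measured by Pearson's r over the 10 arrays of the larger series, as a description. Over the 19930 genes that are not members the median was −0.03, the 95th percentile 0.67 and the 99th percentile 0.83. Of the members outside that mean, H2-Ob had 0.89, Ciita 0.74, H2-Oa 0.73 and H2-DMa 0.68. Only H2-Ob of these lay above the 99th percentile. The 8 nearest genes were AB124611 (0.98), Hsd17b11, an enzyme of lipid droplets (0.96), Cd3g, a chain of the T cell receptor complex (0.96), Il21r, a cytokine receptor of lymphocytes (0.96), Klf6, a zinc finger factor (0.96), Zfp318, needed for IgD in B cells (0.95), Rnpep, an aminopeptidase (0.94), and Trabd (0.94). Cd3g moved over a range of 1.53, close to that of H2-Aa (1.33), and the other 7 over 0.36 to 0.66. Without the 4 h array these 8 had r from 0.93 to 0.97.

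By list, the median r with that mean was 0.68 for the T and NK cell markers, 0.58 for the macrophage and monocyte markers, 0.44 for the B-lineage markers and 0.25 for the dendritic cell markers. The lists of other tissues also had medians away from 0, at −0.66 for liver, 0.53 for small intestine and 0.35 for skeletal muscle. The small intestine list had its highest mean level on the single 4 h array (9.73, next 6.41). The liver list was highest on the 48 h arrays (7.84 and 7.42, next 6.36). These r values therefore lean on few arrays, and none without them is given for the lists. The costimulation list had 0.46. Within the B-lineage list it ran from −0.34 to 0.89, the highest being Cr2. The transcription list had a median of 0.02 and a highest value of 0.88, that of Spi1 (PU.1), a factor of myeloid and B cells. All 10 arrays share the groups and the tissues named above, so an r over them does not separate cell content from regulation.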

How the data were processed

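The deposited values of the 13 arrays are log2 levels, for which the submitters' processing notes name RMA; its version and which arrays were normalized together are not given in the sources used here. Of 35557 probe sets 21789 had 1 gene symbol by the platform annotation, 1621 several and 12147 were not listed with a gene. Each of 19938 genes was represented by its brightest probe set on average. RefSeq tables gave current symbols and promoter sequences.

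With limma 3.58.1 (R 4.3.3), 1 linear model of the 6 groups plus the series covered the 13 arrays, leaving 6 residual degrees of freedom, to which eBayes added 4.62. The 4 h group has 1 array, assumed to vary like the others. Groups follow the time in the labels, which do not say whether replicates are separate animals, so p-values reflect only how far these samples spread, which may be technical. The fit was tested on simulated data. Named genes were the members, fixed defining markers of each list, up to 4 called genes per list and the 8 most like genes. Members and lists were chosen with earlier results of these data known. Alternatives changed the series term, the samples, the filter, the probe sets, the scaling, the moderation and the weights, and left out each array. Figures used matplotlib 3.10.9.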

Additional observations from a re-analysis of the deposited data

How the results depend on the processing

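The count of class II genes past the threshold was 0 in each of the 7 comparisons and under every alternative run, apart from the mean of 12 and 15 h against control, where it ran from 0 to 1 over the arrays left out in turn; the 1 was H2-DMa without control replicate 1. Leaving out the 4 h array and 9 h replicate 1 together, chosen after the data were seen, left it at 0 in the 6 comparisons it allows. Over all genes the counts depended far more on the setting: 397 at 4 h (78 to 1852), 19 at 9 h (3 to 75), 21 at 12 h (2 to 414), 51 at 15 h (5 to 505), 75 at 48 h (11 to 143), 136 for the mean of 12 and 15 h (6 to 1014) and 165 for 48 h against it (11 to 1265). The cause was not tested.

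None of the class II genes passed in the fit to all arrays, so each change of sign below was in a value that did not pass. Without the series term, which moved the median of all genes at 4 h to −0.26, Cd74 was −0.0094, H2-DMa −0.088, H2-Oa −0.23 and Ciita −0.098 at 4 h; at 12 h H2-Aa was −0.25, H2-Ab1 −0.18 and H2-Eb1 −0.15; H2-Eb1 was −0.18 at 15 h and −0.17 in the mean of 12 and 15 h. In the larger series alone, and likewise in fits limited to the compared groups, H2-Oa was 0.024 and H2-Ob 0.0040 at 12 h, H2-Ob 0.069 at 15 h, H2-Oa 0.0024 at 48 h, and H2-Aa 0.025, H2-Ab1 0.032 and H2-Ob 0.037 in the mean of 12 and 15 h. H2-DMa at 4 h was −0.055 with arrays centred on their medians and −0.037 with array weights.

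Over the arrays left out in turn the following differences crossed 0. At 4 h H2-DMa ran from −0.16 to 0.11 and H2-Oa from −0.050 to 0.16, and at 9 h H2-DMa from −0.12 to 0.40. At 12 h these were H2-Aa (−0.14 to 0.20), H2-Ab1 (−0.16 to 0.10), H2-Eb1 (−0.12 to 0.21), H2-Oa (−0.19 to 0.024) and H2-Ob (−0.30 to 0.0040). At 15 h they were Cd74 (−0.23 to 0.074), H2-Ab1 (−0.26 to 0.0011), H2-Eb1 (−0.14 to 0.18), H2-Oa (−0.24 to 0.023) and H2-Ob (−0.24 to 0.069). In the mean of 12 and 15 h they were H2-Aa (−0.18 to 0.055), H2-Ab1 (−0.21 to 0.052), H2-Eb1 (−0.13 to 0.19) and H2-Ob (−0.27 to 0.037). H2-Oa ran from −0.27 to 0.15 at 48 h and from −0.21 to 0.22 at 48 h against 12 and 15 h.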
